A study of Mus musculus with 15 samples.

Results

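A set of 77 genes was followed whose ribosome-bound messages were high on day 5 of ureteral obstruction and close to the sham level on day 2. They were chosen from the measured values of the bound arrays among 18193 genes, so they make up 0.423% of the genes measured. On the log2 scale after quantile normalization, the lowest day 5 bound array of each exceeded every day 0 and every day 2 bound array. The day 5 mean was at least 1.5 above the day 2 mean and at least 8, and the day 2 mean lay within 1 of the day 0 mean. Differences among the 3 bound groups are therefore a description of how the genes were chosen, and no test of them is given. Only the difference between day 5 unbound and day 0 unbound comes from arrays that the choice did not use. Its p-values rest on a spread estimated over all 15 arrays, which include the bound arrays that chose the genes.

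The mice carried Tg:Col1a1-eGFPL10a, a transgene in which the collagen1α1 promoter/enhancer drives a fusion of eGFP with the ribosomal protein L10a, on a strain given as C57/129sv. Both sexes were used, and the labels give Theiler stage 28 and a range of postnatal days, P14 to P300. In translating ribosome affinity purification (TRAP), tagged ribosomes are pulled out of a tissue lysate with the polysomal RNA they carry. This RNA is the bound fraction, labelled as kidney pericytes, which the labels describe as periarterial fibroblasts of both the inner and outer medulla, and what stays behind is the unbound fraction, labelled as kidney medulla. The 15 arrays form 5 groups of 3: bound from sham kidneys on day 0 (arrays 1 to 3), bound from kidneys obstructed for 2 days (arrays 7 to 9) and for 5 days (arrays 10 to 12), unbound of day 5 (arrays 13 to 15) and unbound of day 0 (arrays 4 to 6). The 15 arrays include no unbound RNA of day 2. All groups carry the transgene, whose expression follows collagen 1 control and so is itself tied to cells that make collagen. No label states whether replicate arrays stem from different mice, so p-values measure the spread between these arrays, which may be technical, and 3 arrays per group limit their precision. A lower signal from fewer cells of a type and one from less RNA per cell cannot be told apart.

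Unilateral ureteral obstruction blocks the outflow of urine from 1 kidney and is a standard model of renal fibrosis. In it, perivascular fibroblasts and pericytes of the interstitium divide, take on a contractile myofibroblast state and deposit collagen, elastic fibres and other matrix. Transforming growth factor beta, Wnt and Hedgehog signals act on these cells, and matrix proteases, crosslinking enzymes and feedback inhibitors of the signals accompany the deposition.

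Across genes, pairs of arrays within a group had correlations of 0.918 to 0.973, and the day 2 bound pairs had 0.918 to 0.929. Array 8 of that group correlated with the day 5 bound arrays at 0.927 to 0.958, and arrays 7 and 9 did so at 0.9 to 0.924. The hybridization controls averaged 12114 to 12905 intensity units on arrays 6, 9, 12 and 15, against 4727 to 5864 on the other 11. For Gapdh, the 5' probe set read 0.0269 of the 3' one on array 11 of day 5 bound, and 0.178 to 0.583 of it elsewhere. Col1a1, whose control element drives the transgene, had bound means of 11.61, 12.77 and 12.98 on days 0, 2 and 5. It differed between bound and unbound by 0.69 on day 5 and by 2.43 on day 0 (log2), so the bound fraction was the richer in it on both days.

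The name "rising only by day 5" held for group means and less well for single day 2 arrays. The median level over the 77 genes was 7.61, 7.72 and 7.36 on the day 0 bound arrays, 6.72, 8.34 and 7.51 on day 2 and 9.65, 9.55 and 9.65 on day 5, on the log2 scale. The day 2 arrays thus lay on both sides of the day 0 arrays, and the day 5 arrays lay close together. Array 8 was the highest day 2 array for 65 of the 77 genes, and array 7 was the lowest for 54. Array 8 exceeded every day 0 bound array for 54 of the 77, array 9 did so for 17 and array 7 for 4. The shares of all genes for single day 2 arrays were not computed, and the criteria limit the day 2 values, so nothing is read from these counts. The genes' median SD over day 2 bound arrays was 0.96, against 0.61 over all genes tested, and on day 5 it was 0.28 against 0.41.

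**Figure D1:**
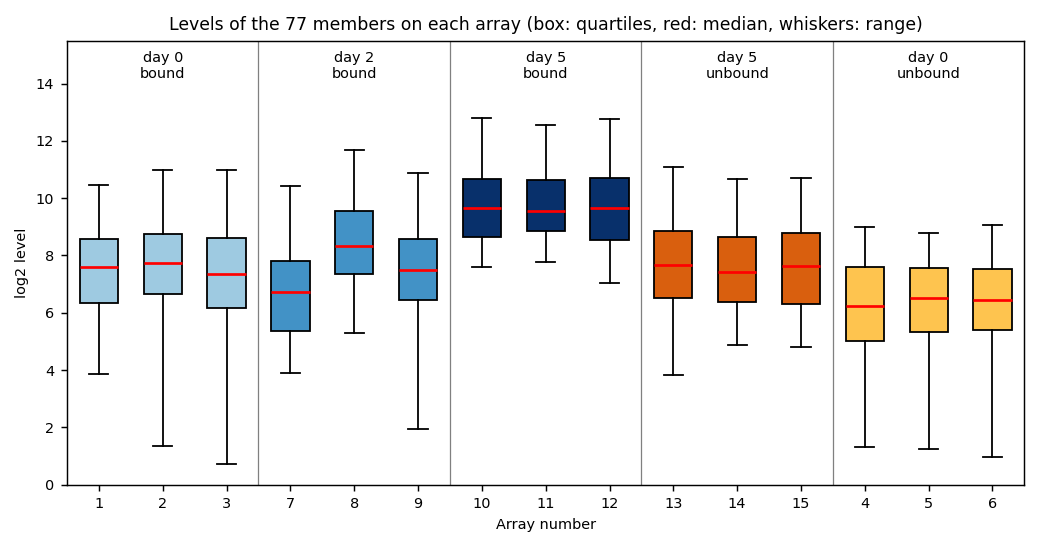
Log2 levels of the 77 genes on each of the 15 arrays, grouped by fraction and day, with boxes from the lower to the upper quartile, red medians and whiskers to the lowest and highest gene. The medians of arrays 10 to 12 (9.55 to 9.65) lie above all others, and array 8 (8.34) lies above arrays 7 and 9 (6.72 and 7.51).

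Which genes were chosen depended on these day 2 arrays. Without array 7 the same criteria gave 52 genes, of which 39 were among the 77, and without array 8 they gave 169, of which 57 were among the 77. Without the 4 bright arrays they gave 101, with 50 shared. The median difference between days 5 and 2 was 2.05 between the bright arrays 12 and 9 and 1.96 between the other arrays of the 2 groups, and the choice of genes fixes the sign of both. The part of brightness in these values was not tested. The gap between the lowest day 5 array and the highest earlier bound array was 0.00 to 3.34, with a median of 0.75, and it was over 1 for 24 genes. Calhm5, Phlda3 and Tnnt1 lay just inside, with gaps of 0.00, 0.05 and 0.11, and Ddah2, Mmp17 and Dact1 just outside, with -0.01, -0.03 and -0.06. For the difference between days 5 and 2, Sparcl1, Nradd and 8430429K09Rik (1.52 each) were just inside, and Nr4a1 (1.49), Frat2 (1.48) and Lrch2 (1.47) just outside. For the day 5 mean, H1f10 (8.00), Tekt2 (8.04) and Col11a1 (8.05) were inside and Asphd2 (7.98), Kirrel3 (7.97) and Fbxl16 (7.91) outside. For the difference between days 2 and 0, H1f10 (0.99), Pcdhb9 (0.98) and Cpxm1 (0.96) were inside and Btnl2 (1.00), Fndc1 (1.01) and Ccdc122 (1.02) outside.

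All 77 genes passed the filter on low values. Over them the day 5 bound mean exceeded the day 2 bound mean by 1.52 to 4.87 (median 1.93) and the day 0 bound mean by 1.01 to 5.17 (median 1.98), on the log2 scale. The 4.87 is that of Stac, whose day 2 mean was at the level of the negative controls. The day 2 mean was above the day 0 mean for 45 genes and below it for 32. Group means of the 77 spanned 3.79 to 10.77 on day 0, 4.35 to 10.99 on day 2 and 8.00 to 12.71 on day 5. The genes were sorted into 10 roles after they were known, so the roles describe them and are not evidence of a theme.

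**Figure D2:**
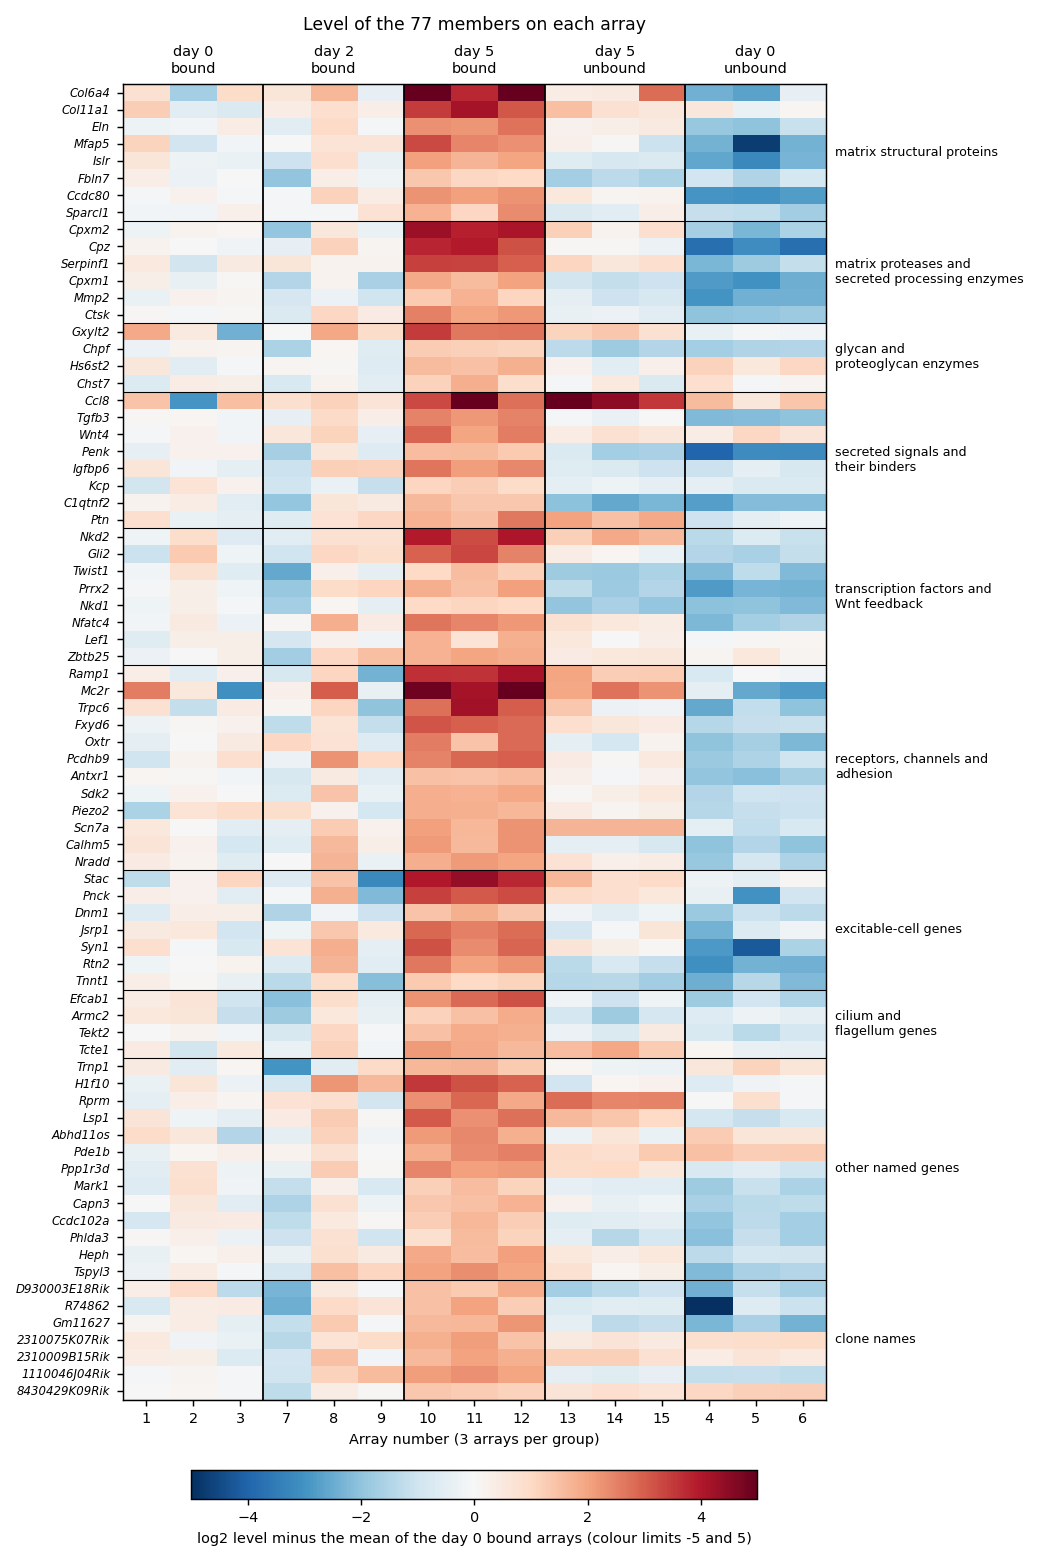
Log2 level of each of the 77 genes on each array minus its mean over the day 0 bound arrays, ordered by role, with red above and blue below that mean and colours ending at 5 and -5. The 3 day 5 bound columns are red in every row, array 8 is redder than arrays 7 and 9, and the day 0 unbound columns are blue for most genes.

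Matrix proteins formed a group of 8 genes, and their day 5 means exceeded the day 2 means by 1.52 to 4.56. Col6a4, a chain of collagen VI, had 5.36, 2.92 and 5.53 in the bound fraction on day 0, 5.21, 6.25 and 4.19 on day 2 and 10.12, 8.38 and 10.82 on day 5. Its lowest day 5 array stood 2.13 above the highest earlier one. Col11a1, a minor fibrillar collagen of cartilage that limits fibril diameter, had 5.70, 3.95 and 3.75 on day 0, 4.84, 5.30 and 4.80 on day 2 and 7.95, 8.64 and 7.58 on day 5. Eln codes for elastin, the core of elastic fibres, and Mfap5 for a glycoprotein of the microfibrils that surround it. Eln had 8.20, 8.29 and 8.83 on day 0, 7.90, 9.41 and 8.34 on day 2 and 10.74, 10.63 and 11.17 on day 5. Mfap5 had 8.45, 6.39 and 7.20, then 7.37, 8.02 and 7.99, and then 10.65, 9.77 and 9.65. The day 2 arrays of Mfap5 lay within the range of day 0, and those of Eln lay on both sides of it. Ccdc80, a secreted protein that binds the matrix, had 10.45, 10.74 and 10.42 on day 0, 10.42, 11.67 and 10.89 on day 2 and 12.80, 12.57 and 12.77 on day 5. The other members of the group were Islr, also called meflin, the fibulin Fbln7 and Sparcl1, a relative of osteonectin, with day 5 minus day 2 differences of 2.08, 1.73 and 1.52.

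Secreted processing enzymes and protease-related genes were 6, with day 5 minus day 2 differences of 1.98 to 4.65. Cpxm2 and Cpxm1 code for secreted relatives of the metallocarboxypeptidases that lack their catalytic activity. Cpxm2 had 6.90, 7.32 and 7.23 on day 0, 5.22, 7.71 and 6.82 on day 2 and 11.42, 11.05 and 11.22 on day 5, so its day 5 mean was 25.1-fold the day 2 mean. Cpxm1 was 1 of the genes nearest the limit on day 2, where its mean was 0.96 below day 0. Cpz, a carboxypeptidase whose frizzled-like domain binds Wnt proteins, had 5.25, 5.08 and 4.93, then 4.68, 6.23 and 5.22, and then 8.91, 9.07 and 8.26. Serpinf1 codes for pigment epithelium-derived factor, a serpin that does not inhibit proteases. It had 9.25, 7.84 and 9.22 on day 0, 9.38, 8.95 and 8.95 on day 2 and 12.20, 12.16 and 11.74 on day 5. Mmp2, the gelatinase A that cleaves denatured collagen and type IV collagen, had 10.34, 10.89 and 10.83, then 9.86, 10.39 and 9.69, and then 11.99, 12.43 and 11.76. Ctsk codes for cathepsin K, a collagen-degrading cysteine protease, and its day 5 minus day 2 difference was 1.98. In each of these 6 genes the day 5 arrays stood apart from the 6 earlier bound arrays by the way they were chosen, and the spread was widest on day 2, except for Serpinf1, whose SD was 0.81 on day 0 and 0.25 on day 2.

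**Figure D3:**
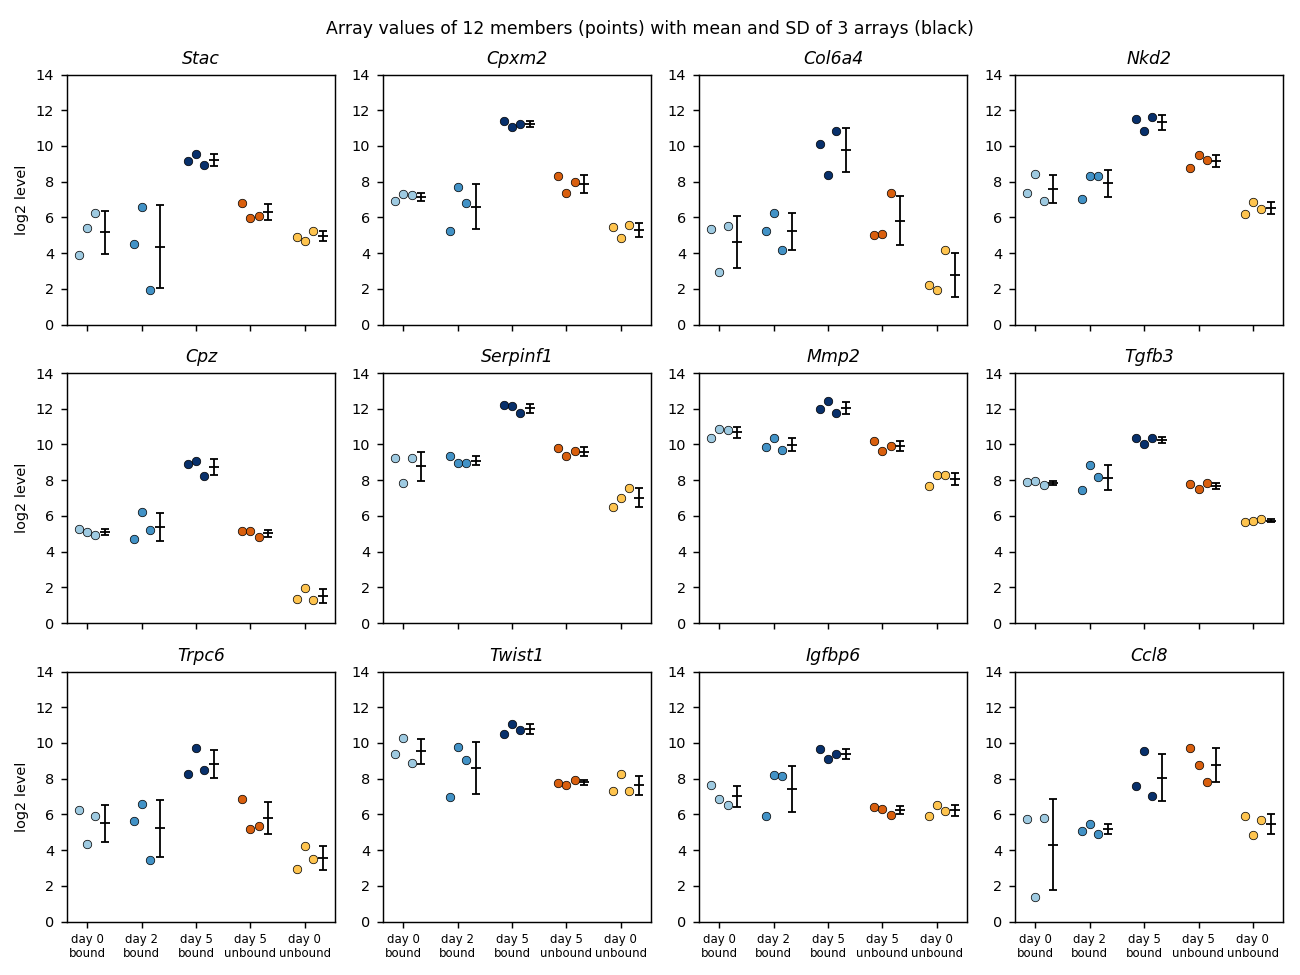
Log2 level on each array of 12 genes (points) with mean and SD of 3 arrays (black), in day 0, day 2 and day 5 bound and day 5 and day 0 unbound. Cpxm2 has the widest gap between day 5 and the earlier bound arrays (3.34), Twist1 and Igfbp6 overlap between the unbound groups, and Ccl8 is as high in the day 5 unbound arrays (7.82 to 9.72) as in the bound ones (7.04 to 9.55).

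Signals, their inhibitors and transcription factors were 16 genes in all. Tgfb3, an isoform of transforming growth factor beta, had 7.90, 7.95 and 7.73 on day 0, 7.44, 8.83 and 8.18 on day 2 and 10.36, 10.03 and 10.35 on day 5. Wnt4, a Wnt ligand expressed in the kidney medulla, had 7.44, 7.72 and 7.36, then 8.06, 8.63 and 7.10, and then 10.41, 9.49 and 10.08. Nkd2 and Nkd1 code for dishevelled-binding proteins that dampen Wnt signalling and are themselves induced by it. Nkd2 had 7.37, 8.44 and 6.91 on day 0, 7.05, 8.33 and 8.34 on day 2 and 11.52, 10.83 and 11.60 on day 5, and its day 5 mean was 10.6-fold the day 2 mean. Nkd1 differed by 1.70. Lef1, a nuclear partner of beta-catenin, differed by 1.65, and its lowest day 5 array was 9.21, against 8.84 for its highest earlier array. Gli2, the main transcriptional activator of the Hedgehog pathway, had 5.26, 7.67 and 6.12, then 5.37, 7.40 and 7.22, and then 9.29, 9.68 and 8.85. Twist1 and Prrx2 are transcription factors of mesenchymal cells, with differences of 2.18 and 1.73, and Nfatc4, a factor activated by calcineurin, differed by 1.68. Among the secreted genes, Penk codes for the precursor of the enkephalins, Ptn for the growth factor pleiotrophin and Igfbp6 for a binding protein with preference for insulin-like growth factor 2, with differences of 2.06, 1.57 and 1.98. Ccl8, a chemokine for monocytes, had 5.74, 1.35 and 5.81 on day 0, 5.09, 5.47 and 4.93 on day 2 and 7.60, 9.55 and 7.04 on day 5, the widest spread among the day 5 bound arrays of these 16 genes.

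Receptors, channels and adhesion proteins were 12 and had day 5 minus day 2 differences of 1.52 to 4.49. Ramp1, the subunit that turns the calcitonin receptor-like receptor into the receptor for calcitonin gene-related peptide, had 5.5, 4.61 and 5.44 on day 0, 4.39, 6.24 and 2.81 on day 2 and 8.82, 8.78 and 9.29 on day 5. Trpc6, a receptor-operated calcium channel known from podocytes and myofibroblasts, had 6.27, 4.32 and 5.89, then 5.64, 6.58 and 3.47, and then 8.26, 9.70 and 8.51. The day 2 arrays of both genes straddled the day 0 values. Fxyd6, a regulator of the sodium pump, had 8.57, 8.92 and 9.04 on day 0, 7.57, 9.54 and 7.65 on day 2 and 12.00, 11.85 and 11.66 on day 5. Mc2r, the receptor for adrenocorticotropic hormone, had 6.34, 4.31 and 0.72 on day 0, of which 1 array was below its negative controls, and 8.66, 7.96 and 9.26 on day 5. Its day 5 mean was at least 13.2-fold the day 0 mean. Oxtr, the oxytocin receptor, Antxr1, a collagen-binding receptor also known as tumour endothelial marker 8, and the mechanosensitive channel Piezo2 differed between days 5 and 2 by 1.92, 1.78 and 1.68. Pcdhb9 belongs to the clustered protocadherins, whose sequences are alike, and signal from relatives of it was not tested.

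A further 7 genes are best known from nerve or muscle. Stac, an adaptor protein of voltage-gated calcium channels, had 3.87, 5.38 and 6.22 on day 0, 4.52, 6.59 and 1.94 on day 2 and 9.15, 9.57 and 8.93 on day 5. On day 2, 1 array was below its negative controls, and the day 5 mean was at least 17.2-fold the day 2 mean. Pnck, a calcium- and calmodulin-dependent kinase, had 5.53, 5.42 and 4.70, then 5.16, 7.01 and 3.00, and then 8.65, 8.30 and 8.47. Dnm1, the dynamin of synaptic vesicle recycling, differed between days 5 and 2 by 2.42. The other 4 were Syn1, Rtn2, Jsrp1 and the slow muscle troponin Tnnt1, with differences of 2.01 to 2.19 among them. The 4 genes of cilia and flagella were Efcab1, Armc2, Tekt2 and Tcte1. Efcab1 had 6.63, 6.87 and 5.23 on day 0, 4.15, 7.11 and 5.74 on day 2 and 8.49, 9.09 and 9.41 on day 5, and the other 3 differed by 1.64 to 2.05. Genes of glycan synthesis were Chpf, which elongates chondroitin, the sulfotransferases Chst7 and Hs6st2 and the xylosyltransferase Gxylt2, with differences of 1.64 to 1.98. The remaining 13 named genes included the linker histone H1f10 (2.24) and the nuclear protein Trnp1 (2.41), and 7 had clone names.

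Promoter windows of 300 bases around annotated starts, from RefSeq on GRCm38.p6, were found for 58 of the 77 genes and held 71 windows in all. The CArG box, which serum response factor binds, and 5 further motifs were searched on both strands, and the matches do not overlap in the windows shown here. The CArG box was found in 4 of the 71 windows (5.63%), against 1.63% of all 32851 windows, and TGANTCA, the AP-1 motif, in 1 (1.41%), against 7.81%. CCAAT was found in 28.2% against 37.4%, TTTGAA in 14.1% against 17.9%, GGAATG in 14.1% against 14.7% and TATAAA in 9.86% against 13.6%. The 4 windows with a CArG box are shown 5′ to 3′ with that box in capitals, chosen after the matches were known. They are chr9:106096642-106096941 on the minus strand for Col6a4, chr9:8543892-8544191 on the plus strand for Trpc6, chr4:133498501-133498800 on the minus strand for Trnp1 and chr3:131112541-131112840 on the plus strand for 1 of the starts of Lef1.
Col6a4 promoter window: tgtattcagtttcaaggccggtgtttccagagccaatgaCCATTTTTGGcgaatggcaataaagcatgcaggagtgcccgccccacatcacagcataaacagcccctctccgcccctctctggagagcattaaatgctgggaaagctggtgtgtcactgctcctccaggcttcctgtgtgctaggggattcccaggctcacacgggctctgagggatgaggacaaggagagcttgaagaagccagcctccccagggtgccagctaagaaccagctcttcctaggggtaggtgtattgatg
Trpc6 promoter window: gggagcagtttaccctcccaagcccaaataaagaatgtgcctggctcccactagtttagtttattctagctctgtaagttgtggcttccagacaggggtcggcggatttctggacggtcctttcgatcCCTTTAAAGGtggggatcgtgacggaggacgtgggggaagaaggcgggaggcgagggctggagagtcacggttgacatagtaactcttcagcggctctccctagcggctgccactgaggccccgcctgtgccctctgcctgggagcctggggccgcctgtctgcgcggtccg
Trnp1 promoter window: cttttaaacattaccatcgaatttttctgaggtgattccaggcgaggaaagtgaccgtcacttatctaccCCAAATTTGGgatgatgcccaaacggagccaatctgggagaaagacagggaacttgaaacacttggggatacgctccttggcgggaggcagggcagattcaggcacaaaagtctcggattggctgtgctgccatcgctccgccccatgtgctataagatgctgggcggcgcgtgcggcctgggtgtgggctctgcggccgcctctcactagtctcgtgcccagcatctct
Lef1 promoter window: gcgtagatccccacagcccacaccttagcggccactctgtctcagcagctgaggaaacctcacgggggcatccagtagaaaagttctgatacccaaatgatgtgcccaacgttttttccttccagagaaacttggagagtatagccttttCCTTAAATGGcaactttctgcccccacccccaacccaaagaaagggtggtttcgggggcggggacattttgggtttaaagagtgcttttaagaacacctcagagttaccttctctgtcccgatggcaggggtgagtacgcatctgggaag
Counted from the annotated start, the boxes begin at -211 in Col6a4, -122 in Trpc6, -180 in Trnp1 and -100 in Lef1. Day 5 minus day 2 bound differences of these genes were 4.56, 3.59, 2.41 and 1.65 on the log2 scale. A match of letters is a description of the window.

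The unbound fraction asks whether the same messages also differed in RNA that the tagged ribosomes had left behind. On day 5, 28 of the 77 were higher than on day 0, 0 were lower and 49 did not pass (limma, adjusted p under 0.05 over 16864 genes). The spread in that fit includes the bound arrays. A fit of only the unbound groups, whose spread leaves them out, gave 46 higher and 1 lower. Among all genes tested 6.43% were higher and 3.93% lower, and among the 9266 with a day 5 bound mean of 8 or more these shares were 8.98% and 3.31%. The median difference of the 77 was 1.43, with quartiles of 0.38 and 2.05, against 0.01 for all genes tested. It was 1.37 with the 6 genes at the negative controls on day 0 set to their bounds. The difference was positive for 67 genes, and for 54 of the 77 all day 5 arrays exceeded all day 0 arrays, where 24.3% of all genes tested did so. Of the 28 calls, 11 held without the 4 bright arrays, and 11 ended when some single array was left out. Leaving out the bright arrays leaves fewer arrays in both unbound groups, and the median of the 77 was then 1.42. With the brightness of the hybridization controls as a covariate instead, 27 of the 77 were higher. The part of brightness in these calls was not tested. With arrays centred on their medians, 638 genes were higher and 726 lower, against 1085 and 662, and the median of all genes moved to -0.22, against 0.01. In that scaling 22 of the 77 were higher and the median of the 77 was 1.30.

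**Figure D4:**
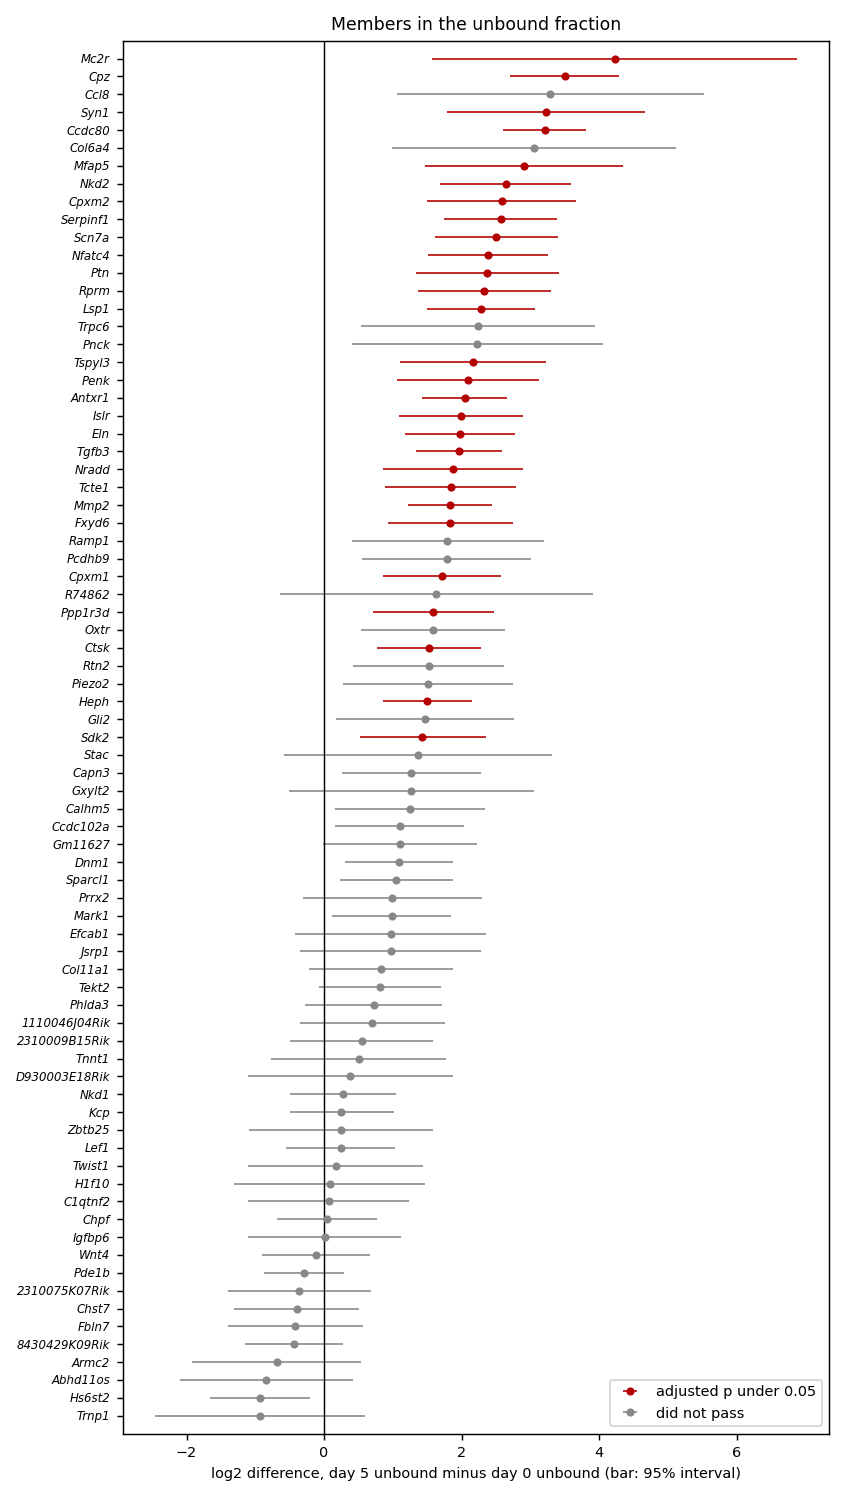
Log2 difference of each of the 77 genes between day 5 and day 0 of the unbound fraction, with its 95% interval, in order of size (red: adjusted p under 0.05, grey: did not pass). The red genes number 28, all right of 0, and the 10 genes left of 0 are grey. The 6 genes with a day 0 mean at the negative controls are drawn at their fitted differences, which are no bounds.

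All 6 genes grouped as secreted processing enzymes or protease-related rose in the unbound fraction. Differences were 1.53 to 2.58 in the 5 that were above the negative controls on day 0. The group was formed after the genes were known and includes relatives without protease or inhibitor activity. Serpinf1 had 9.83, 9.34 and 9.61 on day 5, against 6.49, 6.99 and 7.59 on day 0, a difference of 2.57 ± 0.38 (SE; adjusted p = 0.00134). Mmp2 had 10.18, 9.66 and 9.89 on day 5, against 7.70, 8.28 and 8.27 on day 0 (1.83 ± 0.28, adjusted p = 0.00166), and Cpxm2 differed by 2.58 ± 0.50 (adjusted p = 0.00647). The groups of all 3 genes lay apart. Cpz had 5.16, 5.13 and 4.80 on day 5, against day 0 arrays at the negative controls, and was at least 1.83-fold higher (adjusted p = 0.000156), on the mean of these arrays. Cpxm2 no longer passed without the bright arrays (adjusted p = 0.088). The call for Cpxm1 (1.71 ± 0.39) ended without array 4, 5 or 13 (adjusted p = 0.0622 to 0.0699), and that for Ctsk (1.53 ± 0.35) without array 4, 5, 13 or 14 (0.0528 to 0.0622).

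Of the 8 matrix proteins 4 rose, and their median difference was 1.99. Ccdc80 had 11.08, 10.66 and 10.72 in the day 5 unbound arrays, against 7.57, 7.5 and 7.76 on day 0. It was 9.24-fold higher (3.21 ± 0.28, adjusted p = 4.59e-05), and its bound means differed by 2.18 between the same days. Eln had 8.64, 8.72 and 8.90, against 6.56, 6.43 and 7.34 (1.98 ± 0.37, adjusted p = 0.00543), and Islr and Mfap5 also rose, by 1.99 and 2.91. Eln did not pass with its probe sets averaged (adjusted p = 0.33), nor Islr without the bright arrays (0.088). Mfap5 did not pass in fits that left out array 5, 13 or 14 (adjusted p = 0.054 to 0.0757). Col6a4 had 4.99, 5.07 and 7.39 on day 5, and 2 of its 3 day 0 arrays were below their negative controls. It was at least 2.99-fold higher on day 5, but it did not pass (adjusted p = 0.0617). Its adjusted p lay between 0.0162 and 0.208 over the alternatives. Col11a1 (0.82, 95% interval -0.22 to 1.87), Fbln7 (-0.42) and Sparcl1 (1.05) did not pass.

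Among the signals and transcription factors 5 of 16 rose in the unbound fraction. Tgfb3 had 7.76, 7.51 and 7.83 on day 5, against 5.66, 5.70 and 5.85 on day 0 (1.96 ± 0.29, adjusted p = 0.0013). Nkd2 had 8.77, 9.48 and 9.21, against 6.21, 6.88 and 6.45 (2.64 ± 0.44, adjusted p = 0.00279). Neither gene's groups overlapped, although Nkd2 did not pass without the bright arrays (adjusted p = 0.0612). Nfatc4 (2.38), Ptn (2.37) and Penk (2.09) also rose. The calls for Nfatc4 and Ptn ended with probe sets averaged (adjusted p = 0.26 and 0.0739), and that for Penk without array 4 or 13 (0.0741 to 0.0808). The other probe sets of Ptn were at the negative controls in the day 5 bound arrays. Another probe set of Nfatc4, above the negative controls there, differed by 1.5 in the unbound fraction, and its remaining ones were at the negative controls. Several genes of the same roles were close to 0: Twist1 had 7.76, 7.67 and 7.95 on day 5, against 7.33, 8.24 and 7.30 on day 0, and its difference was 0.17 (95% interval -1.10 to 1.44). The groups of Twist1 overlapped, as did those of Igfbp6 (0.01, interval -1.10 to 1.12), Wnt4 (-0.12) and Lef1 (0.24). Kcp, a regulator of bone morphogenetic protein signals, was at 0.25, and its lowest day 5 array and highest day 0 array both rounded to 7.78. Nkd1 was at 0.27 (interval -0.50 to 1.04), where its relative Nkd2 rose, and the difference between these genes was not tested. Ccl8 had 9.72, 8.76 and 7.82 on day 5, against 5.89, 4.85 and 5.69 on day 0, but did not pass (3.29 ± 1.03, adjusted p = 0.0618).

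Of the 12 receptor, channel and adhesion genes 6 rose. Antxr1 had 9.91, 9.56 and 9.84 on day 5, against 7.65, 7.55 and 7.98 on day 0 (2.05 ± 0.28, adjusted p = 0.000918), and Scn7a, a sodium-sensing channel, had 9.71, 9.73 and 9.72, against 7.58, 6.80 and 7.27 (2.50 ± 0.41, adjusted p = 0.00261). Neither passed with probe sets averaged (adjusted p = 0.727 and 0.25), and Antxr1 has a second probe set at the negative controls. Scn7a did not pass without the bright arrays (adjusted p = 0.0594). Another probe set of Scn7a, above the negative controls on day 5 bound, differed by 3.86 in the unbound fraction. In the bound fraction it went the other way between days 5 and 2, by -1.19. Mc2r was at least 3.80-fold higher, its day 0 arrays being at the negative controls (adjusted p = 0.0461). The calls for Mc2r and Sdk2 (1.43, adjusted p = 0.0496) ended without any 1 of the 6 unbound arrays (adjusted p = 0.0563 to 0.143 for Mc2r and 0.103 to 0.168 for Sdk2). Fxyd6 (1.83) did not pass in fits that left out array 4 or 13 (adjusted p = 0.0642 to 0.0704), nor Nradd (1.88) in those without array 4, 6, 13, 14 or 15 (0.0595 to 0.104). Trpc6 had 6.85, 5.21 and 5.33 on day 5, at least 3.13-fold higher than its day 0 mean at the negative controls, and did not pass (adjusted p = 0.0935). Ramp1 (1.79), Oxtr (1.58), Piezo2 (1.51), Pcdhb9 (1.78) and Calhm5 (1.25) had positive differences that did not pass.

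In the other roles 7 genes rose. Rprm codes for reprimo, a brake on the cell cycle downstream of p53, and had 9.23, 8.90 and 8.94 on day 5, against 6.46, 7.24 and 6.37 on day 0 (2.33 ± 0.45, adjusted p = 0.0063). Lsp1, an actin-binding protein of leukocytes and endothelium, had 9.92, 9.70 and 9.31, against 7.43, 7.14 and 7.52 (2.28 ± 0.36, adjusted p = 0.00202). The arrays of both genes were apart between the days. Syn1 was at least 3.04-fold higher, with its day 0 arrays at the negative controls (adjusted p = 0.00908), and Heph, a ferroxidase of iron export, rose by 1.5. Tspyl3 (2.16), Tcte1 (1.84) and Ppp1r3d (1.59) passed, but single arrays ended their calls (adjusted p = 0.07 to 0.0729, 0.0663 to 0.081 and 0.0561 to 0.096), and Heph did not pass without the bright arrays (0.0977). None of the 4 glycan enzymes and none of the 7 genes with clone names passed, with medians of -0.18 and 0.55. The lowest differences of the set were Trnp1 and Hs6st2 at -0.93 each and Abhd11os, a non-coding transcript, at -0.84. Hs6st2 had 7.91, 7.13 and 7.97 on day 5, against 8.84, 8.23 and 8.73 on day 0, with an adjusted p of 0.103.

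The 77 genes were also set beside genes that were already higher on day 2. These early risers were 534 genes whose day 5 bound arrays all exceeded the day 0 bound arrays, with a day 5 mean of at least 8 that was at least 1.5 above day 0, and a day 2 mean more than 1 above day 0. In the unbound fraction 28 of 77 (36.4%) of the late genes and 336 of 534 (62.9%) of the early risers were higher on day 5 than on day 0, with medians of 1.43 and 1.80. No test of the difference between the sets was made, and the bound arrays that chose both sets also enter the spread behind these calls. Bound minus unbound values use the bound arrays that chose both sets, so their counts describe the sets and nothing is read from the shares of all genes beside them. On day 5 the bound fraction was higher in 61 of the 77 and lower in 0, with a median of 2.18, where 6.37% of all genes tested were higher and 7.74% lower, and it was higher in 166 and lower in 12 of the 534 early risers, with a median of 0.85. On day 0 it was higher in 30 of the 77 and lower in 2, with a median of 1.43, where 4.81% of all genes were higher and 4.1% lower. It was then higher in 52 and lower in 39 of the early risers, with a median of -0.24. With the 5 genes at the negative controls in the day 0 unbound arrays only set to their bounds, the day 0 median of the 77 was 1.27.

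**Figure D5:**
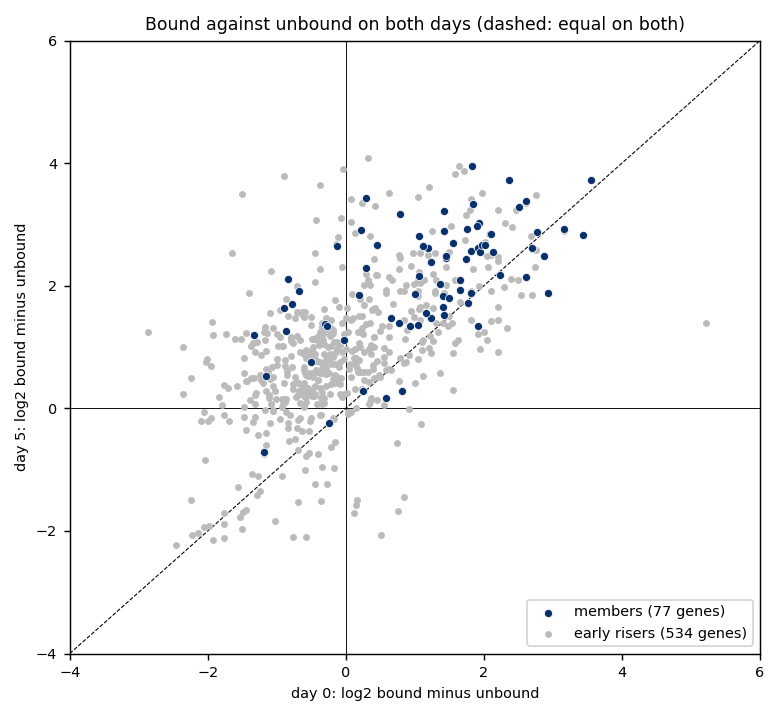
Bound minus unbound log2 difference on day 5 (vertical) against that on day 0 (horizontal) for the 77 genes (dark blue) and the 534 early risers (grey), with a dashed line where both are equal. Most of the 77 lie above 0 on both days (medians 2.18 on day 5 and 1.43 on day 0), while the early risers centre near -0.24 on day 0.

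All day 5 bound arrays exceeded all day 5 unbound arrays for 72 of the 77 genes, where 21.7% of all genes did so, and the day 0 arrays were apart in that direction for 45, where 14.7% did so. For 44 genes this held on both days, where it did for 7.29% of all genes tested, and 5 genes were above the unbound arrays on day 5 and below them on day 0, where 1.76% of all genes were. Col6a4 (3.95), C1qtnf2 (3.73), a secreted relative of adiponectin, Cpz (3.72) and H1f10 (3.44) had the highest bound minus unbound differences on day 5. The 5 genes whose day 5 arrays overlapped were Ccl8 (-0.71), Rprm (-0.24), Ptn (0.17), Tcte1 (0.28) and Scn7a (0.28). All but Ccl8 of these 5 were among the 28 that rose in the unbound fraction. Ccl8 had 7.60, 9.55 and 7.04 in the day 5 bound arrays, against 9.72, 8.76 and 7.82 in the day 5 unbound ones.

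Markers of other cells moved between the same arrays. Among all genes tested 6.43% rose and 3.93% fell in the unbound fraction, and 0.423% of all genes are among the 77. Of 30 macrophage and monocyte markers 0 were among the 77 and 23 rose in the unbound fraction, with a median of 2.90. Their mean level was 9.71 to 10.34 on the day 5 unbound arrays and 7.01 to 7.35 on the day 0 ones. In the bound fraction it was 5.94 to 6.98 on day 0, 6.94 to 8.58 on day 2 and 7.80 to 9.13 on day 5, with 1 of the 30 at the negative controls on day 5, and its part in the values of Ccl8 and Lsp1 was not tested. Of 22 fibroblast markers 5 rose in the unbound fraction and 0 fell, and of 17 tested pericyte and smooth muscle markers 6 rose and 0 fell, with mean levels of 8.96 to 9.25 and 8.65 to 9.02 on day 5, against 7.71 to 8.37 and 7.59 to 8.08 on day 0. The fibroblast list holds 1 of the 77 genes, Mfap5, and the pericyte list 0, and at a share of 0.423% nothing is read from these counts. The fibroblast list holds 3 early risers and the pericyte list 5, where 2.94% of all genes are early risers. Of 20 proximal tubule and 15 collecting duct markers 3 and 7 fell in the unbound fraction. Endothelial markers numbered 20, of which 0 passed in either direction there, and 5 of 10 tested neutrophil markers rose. Of these 10, 8 were at the negative controls on day 0 unbound. Their mean level was 3.05 to 3.43 on those arrays and 5 to 6.61 on the day 5 unbound ones. In the bound fraction 17 of the proximal tubule, 10 of the collecting duct and 10 of the endothelial markers were lower on day 5 than on day 0 in limma, where 9.99% of all genes tested were lower and 13.7% higher. All 6 tested podocyte markers were lower too, and of 13 loop and distal tubule markers 10 were lower and 1 higher. The podocyte markers had mean levels of 11.37 to 12.5 on the day 0 bound arrays and 8.59 to 10.56 on the day 5 ones. On day 0 all 6 were higher in bound than in unbound, with a median of 4.88, where 4.81% of all genes tested were higher. The part of these cells in the values of the 77 genes was not tested.

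The 24 gene lists examined hold 9 of the 77 genes, which include Ccl8 from the chemokine list. Of 22 collagens the list of 77 holds Col11a1, and 8 are early risers. In the unbound fraction 17 of the 22 rose and 0 fell, where 6.43% of all genes tested rose and 3.93% fell. Of 47 tested genes of matrix glycoproteins and remodelling it holds Eln, Mfap5, Mmp2 and Ctsk, and 19 are early risers, with 30 rising and 0 falling in the unbound fraction. Of 33 tested genes of transforming growth factor beta, bone morphogenetic protein and Wnt signalling it holds Tgfb3, Wnt4 and Lef1, and 5 are early risers. Of those 33, 12 rose and 0 fell in the unbound fraction. Of 38 mitosis genes 33 are early risers and 0 are among the 77, and of 34 genes of DNA replication the counts are 18 and 0. Of all genes 2.94% are early risers and 0.423% are among the 77, so nothing is read from the counts of 0.

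Other probe sets of the same genes were read on the same arrays that chose them, so their bound values are a description and no independent check. For 46 of the 77 genes the array has 1 probe set, and for the other 31 there are 47 more. Of these 47, 14 were at the negative controls in the day 5 bound arrays and 33 above them. Among the 33, the day 5 mean was above the day 2 mean in 32, by at least 1.5 in 25 and with a median of 1.75, and the day 5 arrays exceeded all earlier bound arrays in 20. These 33 were kept by their day 5 bound level, where the genes were chosen to be high. The shares over all probe sets were not computed, so nothing is read from the counts. The second probe sets of Eln and Sdk2 differed between days 5 and 2 in the bound fraction by 1.75 and 1.64, but between days 5 and 0 in the unbound fraction by 0.18 and 0.04, against 1.98 and 1.43 for the chosen ones. The second probe set of Dnm1 was at -0.65 in the unbound fraction, against 1.09 for the chosen one.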

How the data were processed

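Polysomal RNA of 15 samples was amplified with NuGEN WT-Ovation, labelled with the Encore Biotin Module and hybridized to 1-colour Affymetrix arrays, per the labels' protocols. The deposited values are intensity on a linear scale, 1 per probe set. How the authors summarized, background-corrected and scaled them is not given in the sources used here. Here log2(intensity + 1) was quantile normalized over the 15 arrays. Probe sets were named from GEO's platform annotation, with symbols updated through RefSeq (GRCm38.p6): 34945 of 45037 had 1 gene, 932 had several and 9160 had none. The probe set with the highest mean stood for each of 18193 genes. Genes above the 25th percentile on at least 3 arrays (16864) were fitted with limma 3.58.1 in R 4.3.3 over all 5 groups (10 residual degrees of freedom), with Benjamini-Hochberg adjustment. A group mean not above the highest of 27 unspiked control probe sets, averaged over its arrays, counts as at the negative controls, and folds against it are lower bounds, computed with each of its arrays set to at least that array's control level. The code was tested on simulated data. The members and gene lists were chosen with earlier results of these data known, and no pattern in the bound arrays is independent support. Named genes are the 20 largest day 5 minus day 2 differences, list members, the 10 largest calls in the unbound fraction and genes next to each threshold. Other members were named, and roles assigned, after their values were seen.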

Additional observations from a re-analysis of the deposited data

Results flagged for a closer look

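In 5 of the 77 genes every day 5 bound array exceeded every day 5 unbound array, while every day 0 bound array lay below every day 0 unbound array, a pattern that 1.76% of all genes tested showed. The bound minus unbound difference was 1.70 on day 5 and -0.78 on day 0 for Trnp1, a change of 2.48 on the log2 scale. For Wnt4 the values were 1.92 on day 5 and -0.68 on day 0, a change of 2.60. For Pde1b, a calmodulin-dependent phosphodiesterase, they were 1.20 and -1.33, a change of 2.53. For 2310075K07Rik they were 1.27 and -0.87, a change of 2.14, and for 8430429K09Rik 0.53 and -1.16, a change of 1.69. The difference was not tested, and the day 0 and day 5 bound arrays are among those that chose these genes. None of the 5 passed between days in the unbound fraction (limma), where the differences were -0.93 for Trnp1, -0.12 for Wnt4, -0.29 for Pde1b, -0.36 for 2310075K07Rik and -0.44 for 8430429K09Rik.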

How the results depend on the processing

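No paired analysis was possible because the groups share no replicate number in the labels. In the unbound fraction, day 5 against day 0, 1085 genes were higher and 662 lower. Median centring of the arrays gave 638 and 726. A fit of only the unbound groups gave 2287 and 1967, and array weights gave 2854 and 2426. As alternatives added after seeing the data, leaving out the 4 bright arrays gave 382 and 232, and brightness as a covariate gave 1070 and 677. Leaving out 1 array at a time gave 527 to 764 higher and 254 to 448 lower. Of the 77 genes, 28 were higher and 0 lower. The counts were 46 and 1 with only the unbound groups, 48 and 2 with array weights, 11 and 0 without the bright arrays and 27 and 0 with brightness as a covariate. Without single arrays 17 to 25 were higher and 0 lower, with 17 reached without array 13. Of the 28 calls, 8 held in all 16 alternatives and 17 in all fits without 1 array, and 25 further genes passed in some alternative. Changes of sign in a gene that passed in the main fit or in that alternative numbered 0. Genes near 0 that did not pass could change sign, such as Twist1 (-0.07 to 0.48). The median unbound difference of the 77, 1.43, was 1.06 with probe sets averaged and 1.10 with a pseudocount of 16, and 1.28 to 1.47 without single arrays. The median day 5 bound minus unbound difference, 2.18, was 2.58 with arrays centred on their medians, where the median of all genes moved to 0.41, against 0.03. Without single arrays it was 2.21 to 2.34, and the median day 5 minus day 2 difference, 1.93, was 1.52 to 2.39. The criteria chose 52 to 169 genes without single arrays, against 77, with both extremes set by day 2 arrays 7 and 8. Signal over background limits genes at the negative controls, which numbered 6 of the 77 on day 0 unbound. With 3 arrays per group, intervals on single genes are wide, and no cause of these shifts was tested.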
